A study of Mus musculus with 31 samples.

Results

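The genes described here encode the proteins of the mitochondrial ribosome and are measured across 8 groups of mice that differed in dietary fat and in the solution infused into the colon. The family was chosen with earlier results of these data known, and its members were then taken by symbol. Included was every gene with a symbol starting with Mrpl or Mrps and a number, without pseudogenes, that had a probe set annotated to a single symbol. Where a gene had several such probe sets, that with the highest mean was taken. The choice gave 74 genes of 18820 with such a probe set, 46 named Mrpl and 28 named Mrps, from 87 probe sets. All 74 passed the filter on dim genes, so none was lost from the tests.

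The mitochondrial ribosome translates the few messenger RNAs that the mitochondrial genome encodes, all for subunits of the respiratory chain and ATP synthase. Its RNA is made inside the mitochondrion, while its proteins are encoded in the nucleus, made in the cytosol and imported. Some of these proteins have counterparts in the bacterial ribosome, and others are specific to mitochondria. The colonic epithelium, which oxidises short-chain fatty acids from bacterial fermentation, is a tissue rich in mitochondria.

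RNA came from scrapings of the lining of the colon of male C57Bl/6J mice aged 13 weeks. The mice had arrived at 8 weeks of age and had eaten chow for 2 weeks and then, for 2 weeks before the infusions and during them, a semi-synthetic diet with palm oil in place of lard. The low-fat diet (LFD) supplied 10% of energy as fat and the high-fat diet (HFD) 45%. Under sedation, all mice received 80 µL of solution into the rectum on each of 6 days: saline alone, or saline with 100 mM sodium acetate, sodium propionate or sodium butyrate. These acids are linear and differ in chain length, which grows from acetate over propionate to butyrate. The colon was taken 4 h after the last infusion, and each sample was hybridised to its own array. With 4 arrays in each of 7 groups (n = 4) and 3 in the acetate LFD group (n = 3), there were 15 LFD and 16 HFD arrays. The labels give 6 mice per group without saying which of them the arrays hold. A p-value sets a difference of group means against the spread between these samples within groups, estimated over all 8 groups. Values are RMA log2 levels. They are compared between groups for each gene and not between genes, since probe sets differ in brightness. Errors of differences are standard errors of the limma fit to all 31 arrays, and adjusted p-values are Benjamini-Hochberg values over the 12795 genes tested. In bulk tissue, fewer cells of a type and less RNA per cell cannot be told apart.

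Colonocyte markers were bright on every array. The mean of 10 such markers, among them the carbonic anhydrases Car1 and Car4 and the chloride exchanger Slc26a3, lay between 11.6 and 12.03. The mean of 4 markers of neurons and glia stayed between 3.71 and 4.05, below the log2 floor of 4.32 used to call a gene measurable. On 4 arrays (saline LFD 2 and 3, propionate LFD 2, saline HFD 2) the mean of 12 markers of small-intestinal absorptive cells lay between 8.22 and 8.72, against 6.25 to 6.82 on the other arrays. On saline HFD 1 and 2 the mean of 10 smooth muscle markers was 6.46 and 6.25, against at most 5.71 elsewhere. Results that change without these arrays are given with and without them.

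Upstream sequence of the genes whose levels carry the diet results was read from RefSeq (GRCm38.p6), which held start-site windows for 65 of the 74 genes. The stretches below run over the 150 bases before the annotated start, on the strand of the gene. Capitals mark matches, on either strand, to motifs of factors known to drive nuclear genes for mitochondrial proteins: CCGGAAG for the ETS family, to which Gabpa belongs, and the Nrf1 and Yy1 motifs, each of 10 letters. The first 5 are the genes called for diet over all infusions. The last 3 are genes called for diet under propionate, with at least 1 match to each of the 3 motifs among them.
Mrps27: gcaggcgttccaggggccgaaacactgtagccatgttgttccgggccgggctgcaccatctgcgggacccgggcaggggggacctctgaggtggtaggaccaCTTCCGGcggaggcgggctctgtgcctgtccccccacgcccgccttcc
Mrps36: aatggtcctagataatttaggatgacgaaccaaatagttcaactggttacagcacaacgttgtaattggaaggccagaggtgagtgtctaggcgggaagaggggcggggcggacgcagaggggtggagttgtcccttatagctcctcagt
Mrps18b: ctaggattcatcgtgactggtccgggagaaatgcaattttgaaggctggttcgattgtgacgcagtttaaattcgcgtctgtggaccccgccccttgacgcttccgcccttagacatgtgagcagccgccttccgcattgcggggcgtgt
Mrpl16: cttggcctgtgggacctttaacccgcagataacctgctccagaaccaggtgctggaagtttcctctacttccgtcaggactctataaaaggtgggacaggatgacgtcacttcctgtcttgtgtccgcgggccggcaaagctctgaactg
Mrpl34: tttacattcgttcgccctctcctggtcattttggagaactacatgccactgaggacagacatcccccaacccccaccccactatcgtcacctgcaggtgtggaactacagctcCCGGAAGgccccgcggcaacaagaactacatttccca
Mrps22: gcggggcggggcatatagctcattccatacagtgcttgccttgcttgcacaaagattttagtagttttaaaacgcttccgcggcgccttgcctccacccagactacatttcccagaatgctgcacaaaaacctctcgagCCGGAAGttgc
Mrps11: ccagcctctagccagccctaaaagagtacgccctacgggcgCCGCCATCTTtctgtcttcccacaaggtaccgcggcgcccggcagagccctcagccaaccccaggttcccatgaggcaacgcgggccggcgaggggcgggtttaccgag
Mrpl45: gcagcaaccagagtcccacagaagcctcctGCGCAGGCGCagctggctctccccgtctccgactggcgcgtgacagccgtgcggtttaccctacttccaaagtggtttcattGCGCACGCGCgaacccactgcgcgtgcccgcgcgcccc
These lie at chr13:99344636-99344785 (plus strand) for Mrps27, chr13:100744660-100744809 (minus) for Mrps36, chr17:35916441-35916590 (minus) for Mrps18b, chr19:11770265-11770414 (plus) for Mrpl16, chr8:71464776-71464925 (plus) for Mrpl34, chr9:98601680-98601829 (minus) for Mrps22, chr7:78782981-78783130 (plus) for Mrps11 and chr11:97315566-97315715 (plus) for Mrpl45.

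Over windows of 300 bases (250 before the start and 50 after it), 39 of the 65 genes had a match to at least 1 of 4 motifs, the fourth being CACGTG, the E-box that Myc binds. The ETS letters were found in 24 of the 65 (36.9%), against 18.3% of the 10147 tested genes with a window and 8.86% of all 32851 windows. The Nrf1 letters were found in 13 (20%), against 10.7% of tested genes and 4.6% of all windows. The Yy1 letters were found in 5 (7.69%), against 2.16% and 0.852%. The E-box was found in 5 (7.69%), against 11.4% and 7.15%. Counted by window, the shares in the 71 windows of these genes were 33.8% (ETS), 18.3% (Nrf1), 7.04% (Yy1) and 9.86% (E-box). In the windows of tested genes they were 15.8%, 9.14%, 1.78% and 9.6%. No window of these genes had different motifs overlapping. Mrps27 had an ETS match before its start and a Yy1 match after it. Mrpl45 had Nrf1 matches on both sides of its start. Mrps36 and Mrpl16 had no match to any of the 4. A match is a description of the letters, and binding was not measured.

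On the high-fat diet, nearly all of these genes had slightly lower levels. Averaged over the 4 infusions, HFD minus LFD was below 0 for 71 of 74 genes, against 47.6% of all genes tested. The median difference was -0.09 on the log2 scale (-5.87%), against 0.01 over all genes. The middle of the distribution, from the lower to the upper quartile, ran from -0.14 to -0.05. The change in any single gene was small: 5 genes (6.76%) passed an adjusted p of 0.05, all lower, against 2.7% of all genes called and 1.16% called lower. At an unadjusted p under 0.05 stood 34 genes (45.9%), all lower, against 21.7% of all genes in either direction and 10.8% lower.

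The mean level of the 74 genes on each array shows the same ordering within each infusion. Under saline it was 7.71 ± 0.0980 (SD, n = 4) on LFD and 7.61 ± 0.0645 on HFD. Under acetate it was 7.68 ± 0.0557 (n = 3) on LFD and 7.58 ± 0.0355 on HFD. Under propionate it was 7.70 ± 0.0506 on LFD and 7.56 ± 0.100 on HFD, and under butyrate 7.67 ± 0.0569 on LFD and 7.62 ± 0.0661 on HFD. The HFD mean was the lower in each pair, with the smallest gap under butyrate. Only under acetate did the arrays of the diets not overlap in this mean. Of the propionate HFD arrays, array 1 stood at 7.70, among the LFD arrays, and the other 3 between 7.49 and 7.54.

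**Figure D1:**
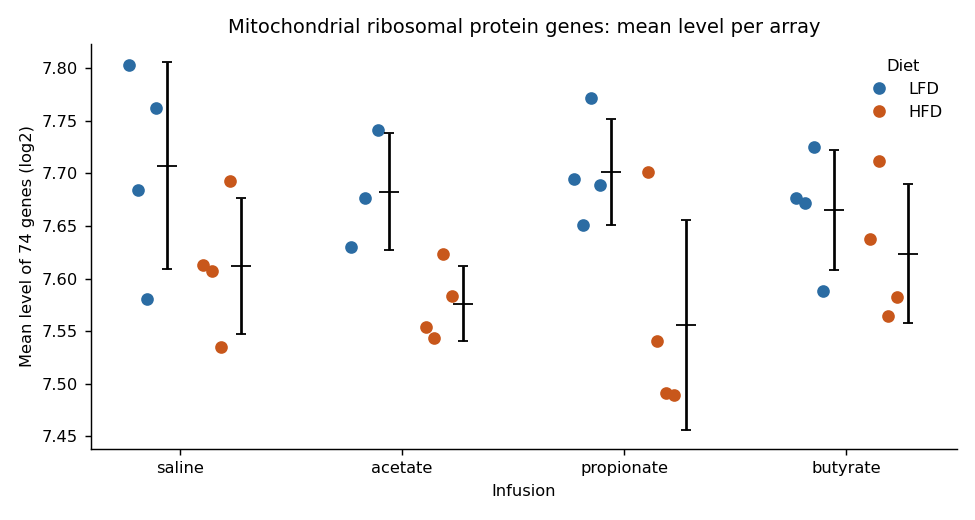
Mean log2 level of the 74 genes on each array (points), by infusion (x axis) and diet (colour), with the group mean ± SD in black beside each group. Group means were 7.67 to 7.71 on LFD and 7.56 to 7.62 on HFD, and single arrays of the diets overlapped under saline, propionate and butyrate.

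By role, the lower levels on HFD ran through both subunits. Of 29 tested proteins of the large subunit with a bacterial counterpart, 28 were below 0 and 2 were called (median -0.08). Of 19 large-subunit proteins specific to mitochondria, 18 were below 0 and none was called (median -0.10). Among these 19 are Mrps30 and Mrps18a, which sit in the large subunit in spite of their names. All 15 small-subunit proteins with a bacterial counterpart were below 0 and none was called (median -0.08), and of 10 mitochondria-specific small-subunit proteins 9 were below 0 and 2 were called (median -0.09). The 5th gene called was Mrps36, whose product is now known as a subunit of the 2-oxoglutarate dehydrogenase complex and not of the ribosome. Leaving it aside, the count of called ribosomal proteins was 4.

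Mrps27, a small-subunit protein with pentatricopeptide repeats, had the smallest p. Its level ran from 6.66 over a median of 7.002 to 7.23 on the LFD arrays and from 6.45 over 6.71 to 6.92 on the HFD arrays. All 16 HFD arrays lay below the LFD median, and the ranges overlapped. The difference was -0.24 ± 0.0560 (adjusted p = 0.0241), with 13 of 16 HFD arrays below the LFD mean of the same infusion. Mrps36 ran from 6.45 over 6.71 to 7.18 on LFD and from 5.92 over 6.42 to 6.88 on HFD. It had the largest difference of the 74 genes, -0.34 ± 0.0868 (adjusted p = 0.0309; 14 of 16 arrays).

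Mrps18b belongs to the small subunit and is related to Mrps18a and Mrps18c. It ran from 8.38 over 8.64 to 8.83 on LFD and from 7.96 over 8.44 to 8.72 on HFD, a difference of -0.20 ± 0.0531 (adjusted p = 0.0429; 15 of 16 arrays). The relatives had -0.06 ± 0.0366 for Mrps18a and -0.14 ± 0.0605 for Mrps18c, with adjusted p-values of 0.320 and 0.178. Mrpl16, whose bacterial counterpart lies close to the peptidyl transferase centre, ran from 7.47 over 7.63 to 7.86 on LFD and from 7.23 over 7.42 to 7.77 on HFD. The difference was -0.19 ± 0.0510 (adjusted p = 0.0438; 12 of 16 arrays). Mrpl34, a small protein of the large subunit, ran from 9.47 over 9.81 to 9.99 on LFD and from 9.28 over 9.62 to 9.90 on HFD, a difference of -0.18 ± 0.0493 (adjusted p = 0.0455; 13 of 16 arrays). In each of the 5 genes the ranges of the diets overlapped.

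**Figure D2:**
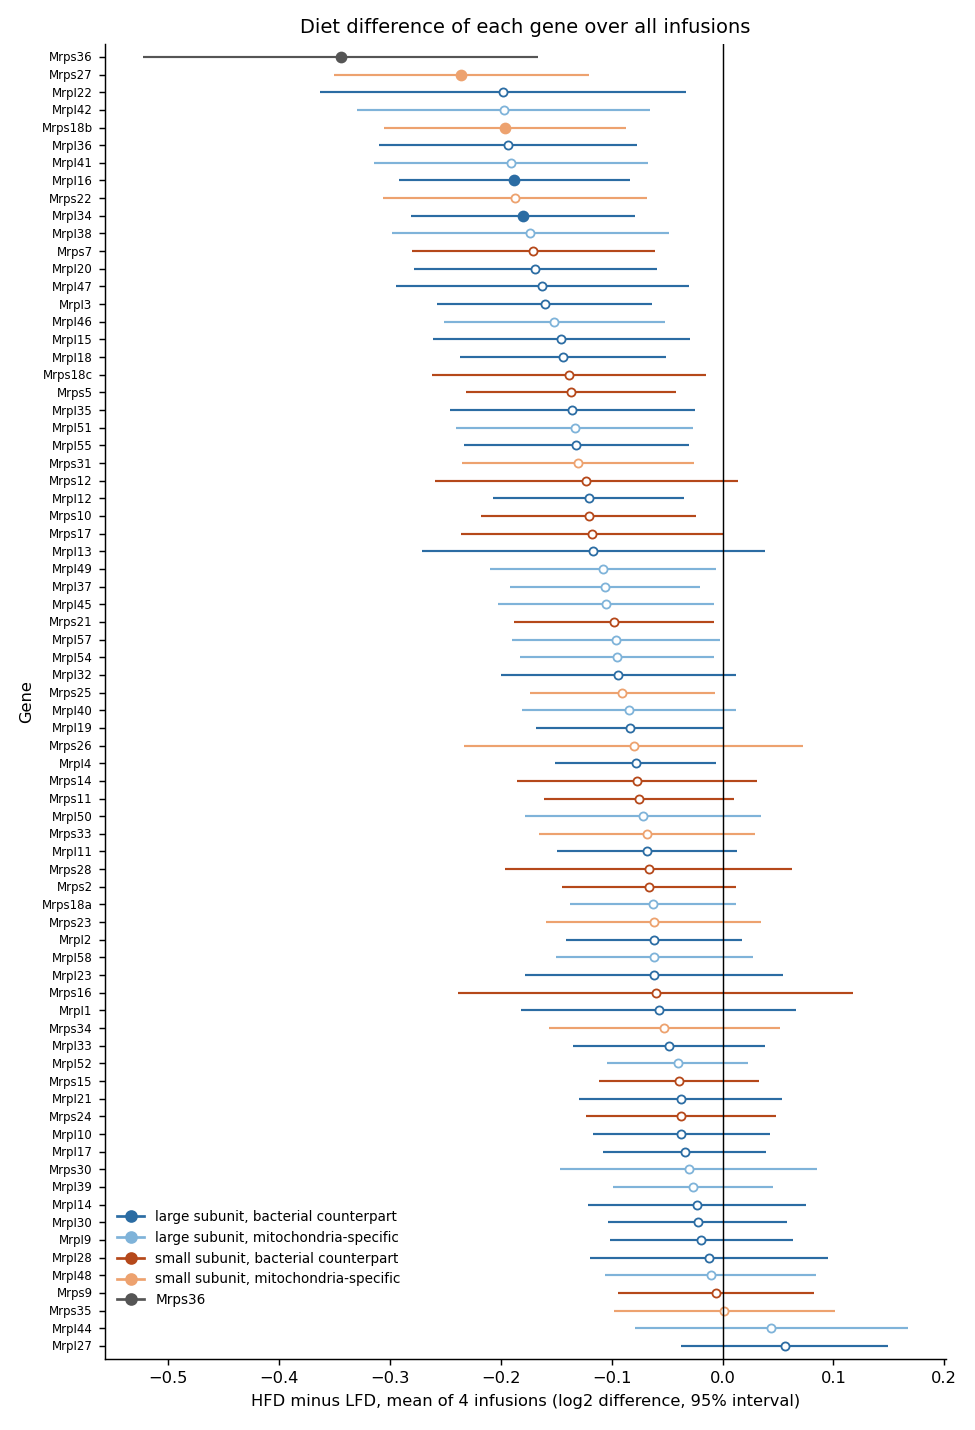
HFD minus LFD over the 4 infusions for each of the 74 genes (y axis, ordered by difference), with 95% intervals (lines); filled points passed an adjusted p of 0.05 and colours give the role. Points lie left of 0 for 71 genes, from Mrps36 at -0.34 to Mrpl27 at 0.06.

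The calls and the shared direction behaved differently when samples were left out. Without any single array, the median of the 74 genes stayed between -0.0991 and -0.0787, while the number called ran from 0 (without acetate LFD 3) to 16 (without saline LFD 3). It was 1 without each of acetate HFD 1, acetate LFD 2, saline LFD 2, saline HFD 1, saline HFD 3, propionate LFD 3, propionate HFD 3, butyrate LFD 1, butyrate LFD 3, butyrate HFD 3 and butyrate HFD 4. It was 2 without acetate HFD 2, propionate LFD 1, propionate LFD 4, saline LFD 4, saline HFD 2 or butyrate LFD 2, and 3 without acetate HFD 4 or propionate LFD 2, HFD 2 or HFD 4. It rose to 11 without saline HFD 4, 12 without acetate LFD 1 or butyrate LFD 4, 13 without butyrate HFD 2 and 14 without propionate HFD 1. When the 4 arrays with high levels of small-intestinal markers were left out 12 genes were called, and when the 2 with high levels of smooth muscle markers were left out none, with medians of -0.10 and -0.08. The share of all genes called in each of these runs is not given here. The counts therefore do not show whether the calls moved in these genes alone.

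Markers of dividing cells moved in the same direction. Of 11 measured markers 10 were below 0 in the diet comparison over all infusions, with a median of -0.14, and Mcm4, a subunit of the replicative helicase, was called (-0.32 ± 0.0881, adjusted p = 0.0475). Their mean level ran from 7.08 over 7.52 to 7.77 on the LFD arrays and from 6.87 over 7.30 to 7.69 on the HFD arrays. The 12 small-intestinal markers were below 0 for 11 (median -0.34), with mean levels of 6.40 to 8.72 on LFD and 6.25 to 8.22 on HFD. Of the 9 smooth muscle markers tested 8 were above 0 (median 0.12), with mean levels of 4.57 to 5.71 on LFD and 4.94 to 6.46 on HFD. Of 10 colonocyte markers 6 were below 0 and none was called (median -0.01). Above 0 were 9 of 9 macrophage and dendritic cell markers (median 0.13), 7 of 8 lymphocyte markers (0.14), 6 of 6 fibroblast markers (0.13) and 5 of 5 enteroendocrine markers (0.11), with none called, while 5 of 5 adipocyte markers were below 0 (-0.24). The part of these cell types in the diet difference was not tested, beyond leaving out the arrays named above.

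Within each infusion the diet contrast rests on separate arrays. The difference was below 0 for 59 genes under saline (47.4% of all genes), 62 under acetate (47.3%), 57 under propionate (54.3%) and 51 under butyrate (41%). The medians were -0.09, -0.11, -0.14 and -0.03. Across the 4, 25 genes (33.8%) were below 0 under every infusion, against 11.8% of all genes, and none of the 74 was above 0 under every infusion, against 14.9% of all genes. Of the 8 group means, propionate HFD was the lowest for 40 of the 74 genes (54.1%, against 27.5% of all genes) and acetate HFD for 20 (27.0%, against 11.9%). Saline LFD was the highest for 24 (32.4%, against 10.4%) and propionate LFD for 21 (28.4%, against 16.3%). With the propionate groups left out, 65 of the 74 genes were below 0 over the other 3 infusions, against 44.6% of all genes, with a median of -0.07. No gene of the 12795 was called in that comparison, and 23 of the 74 stood at an unadjusted p under 0.05, against 16.6% of all genes.

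**Figure D3:**
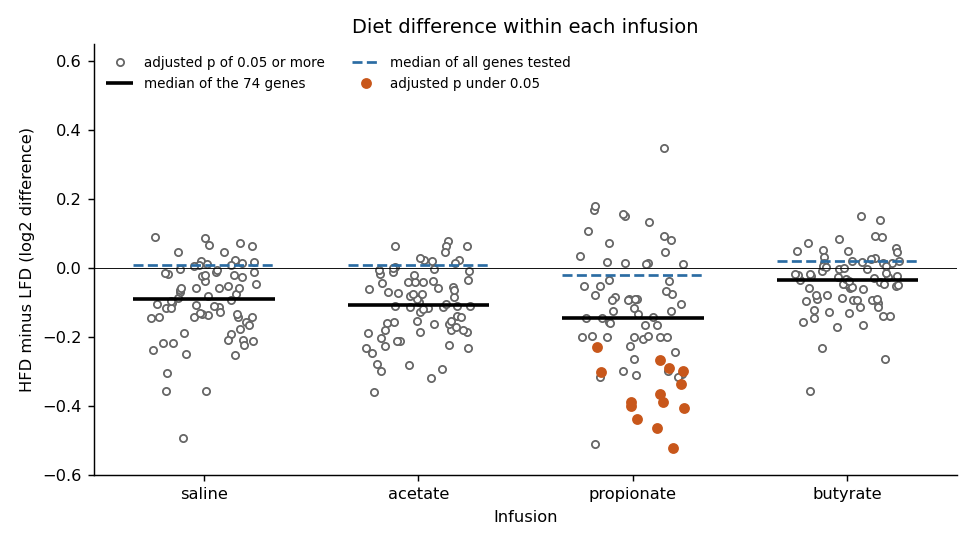
HFD minus LFD of the 74 genes (points, jittered sideways) within each infusion, with their median (solid line) and the median of all genes tested (dashed line). Filled points, present under propionate only, passed an adjusted p of 0.05; the medians were -0.09, -0.11, -0.14 and -0.03.

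Under saline, none of the 74 genes was called by limma, as was the case for all genes (0%), and 7 (9.46%) stood at an unadjusted p under 0.05, against 7.28% of all genes. Mrpl22, whose bacterial counterpart lines the exit tunnel, had the largest difference, -0.49 ± 0.158 (adjusted p = 0.667). Its saline LFD arrays stood at 6.78, 5.62, 6.06 and 6.32 and its saline HFD arrays at 5.74, 5.97, 5.34 and 5.76, so the groups overlapped through LFD array 2. The 4 arrays with high levels of small-intestinal markers include that array. Without them, the saline arrays that remained were LFD 1 and 4 (6.78 and 6.32) and HFD 1, 3 and 4. The limma difference of Mrpl22 was then -0.94 with an adjusted p of 0.0192, and the median of the 74 genes under saline was -0.16. This alternative was chosen after the data were seen, and its share of all genes called is not given here. Mrpl41, a mitochondria-specific large-subunit protein, and Mrps12, a decoding-site protein, had -0.36 ± 0.118 and -0.36 ± 0.131 under saline (adjusted p = 0.667 for both).

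Under acetate, none was called (0% of all genes), 9 (12.2%) stood at an unadjusted p under 0.05, against 7.71% of all genes, and for 13 genes all 4 HFD arrays lay below all 3 LFD arrays, against 4.18% of all genes. Mrpl46, a mitochondria-specific large-subunit protein, stood at 7.69, 7.69 and 7.52 on LFD and at 7.31, 7.40, 7.23 and 7.31 on HFD. The groups did not overlap, and the difference was -0.32 ± 0.103 (adjusted p = 0.629). Mrps18c had -0.36 ± 0.128 and Mrps25, a mitochondria-specific small-subunit protein, -0.23 ± 0.0859, both with an adjusted p of 0.629. Under butyrate, none was called (0%) and 3 (4.05%) stood at an unadjusted p under 0.05, against 3.67% of all genes. These were Mrpl54 (-0.26 ± 0.0838), Mrpl57 (-0.23 ± 0.0898) and Mrps36 (-0.36 ± 0.170), each with an adjusted p of 1.00. For Mrpl54 the butyrate LFD arrays stood at 8.09, 7.98, 8.12 and 8.07 and the HFD arrays at 7.75, 7.94, 7.85 and 7.66, without overlap. Every butyrate HFD array lay below every butyrate LFD array in 3 of the 74 genes, against 0.766% of all genes. The reverse held for none, against 1.7%.

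Under propionate 14 genes (18.9%) passed the threshold, all lower on HFD, against 6.87% of all genes called and 4.82% called lower. A further 16 stood at an unadjusted p under 0.05, which made 30 (40.5%), all lower, against 24.4% of all genes in either direction and 15.9% lower. For 15 genes every propionate HFD array lay below every propionate LFD array, against 8.77% of all genes, and for none was it the reverse, against 5.22%. The called genes came from each role: 6 of 29 large-subunit proteins with a bacterial counterpart, 4 of 19 specific to mitochondria, 2 of 15 small-subunit proteins with a bacterial counterpart and 2 of 10 specific to mitochondria.

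In the small subunit, Mrps22, specific to mitochondria, stood at 7.14, 7.14, 7.29 and 7.11 on the propionate LFD arrays and at 6.99, 6.52, 6.48 and 6.58 on the HFD arrays. The groups did not overlap, and HFD array 1 was closest to the LFD arrays. The difference was -0.52 ± 0.114 (-30.4%, adjusted p = 0.0156). Mrps11, which has a bacterial counterpart on the platform of the subunit, stood at 6.93, 7.04, 7.04 and 7.04 on LFD and at 6.78, 6.49, 6.77 and 6.56 on HFD, without overlap. The difference was -0.36 ± 0.0820 (adjusted p = 0.0156).

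Mrps5, whose counterpart lies at the entry of the messenger RNA, stood at 8.38, 8.25, 8.55 and 8.40 on LFD and at 8.09, 8.01, 7.91 and 8.02 on HFD, a difference of -0.39 ± 0.0905 (adjusted p = 0.0172). Mrps27 stood at 6.93, 7.03, 7.10 and 7.17 on LFD and at 6.92, 6.49, 6.51 and 6.45 on HFD, a difference of -0.46 ± 0.110 (adjusted p = 0.0179). In Mrps27 the groups stood apart by the narrow gap between HFD array 1 and LFD array 1. A second probe set of Mrps5 had a difference of -0.50 ± 0.0959.

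In the large subunit, Mrpl10 anchors the stalk that recruits translation factors. It stood at 9.50, 9.45, 9.55 and 9.37 on LFD and at 9.06, 9.05, 9.10 and 9.33 on HFD, where array 4 was close to the LFD arrays. The difference was -0.34 ± 0.0766 (adjusted p = 0.0156). Its partner in the stalk, Mrpl12, had -0.10 ± 0.0820 under propionate and was not called. A second probe set of Mrpl12, with a mean level of 8.39, had -0.26 ± 0.105 under propionate. Mrpl45, which ties the ribosome to the inner membrane, stood at 7.20, 7.07, 7.11 and 7.03 on LFD and at 6.77, 6.56, 6.68 and 6.84 on HFD, a difference of -0.39 ± 0.0932 (adjusted p = 0.0189).

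Mrpl34 stood at 9.90, 9.86, 9.93 and 9.82 on LFD and at 9.69, 9.49, 9.28 and 9.45 on HFD, a difference of -0.40 ± 0.0967 (adjusted p = 0.0195). Mrpl35, a protein with a bacterial counterpart, stood at 8.33, 8.30, 8.51 and 8.44 on LFD and at 8.35, 7.81, 7.75 and 8.03 on HFD. Here HFD array 1 lay within the LFD range, and the difference was -0.41 ± 0.105 (adjusted p = 0.0257). Mrpl38, specific to mitochondria, stood at 7.84, 7.71, 7.95 and 7.88 on LFD and at 7.39, 7.29, 7.38 and 7.58 on HFD, a difference of -0.44 ± 0.119 (adjusted p = 0.0302).

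Mrpl58, a member of the release factor family that became a ribosomal protein, stood at 7.83, 7.75, 8.06 and 7.94 on LFD and at 7.73, 7.48, 7.64 and 7.57 on HFD, a difference of -0.29 ± 0.0850 (adjusted p = 0.0393). The other 4 called genes, Mrpl19, Mrpl4, Mrpl3 and Mrpl40, had differences of -0.30 to -0.23 and adjusted p-values of 0.0438 to 0.0491. Mrpl40 overlapped between the diets, and Mrpl19, Mrpl4 and Mrpl3 did not.

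Of the 17 genes above 0 under propionate, none was called. The largest was Mrps16, a small-subunit protein with a bacterial counterpart, at 0.35 ± 0.170 (adjusted p = 0.207). Its HFD arrays stood at 7.55, 7.62, 7.68 and 6.90 and its LFD arrays at 7.09, 7.29, 6.81 and 7.18. Array 4 lay within the LFD range and the other 3 HFD arrays above it. In Mrpl27 the other 3 HFD arrays also lay above the LFD range and array 4 below it, at 8.06, 8.13, 8.04 and 7.66 on HFD and 7.86, 7.78, 7.77 and 7.80 on LFD, a difference of 0.17 ± 0.0894 (adjusted p = 0.243).

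**Figure D4:**
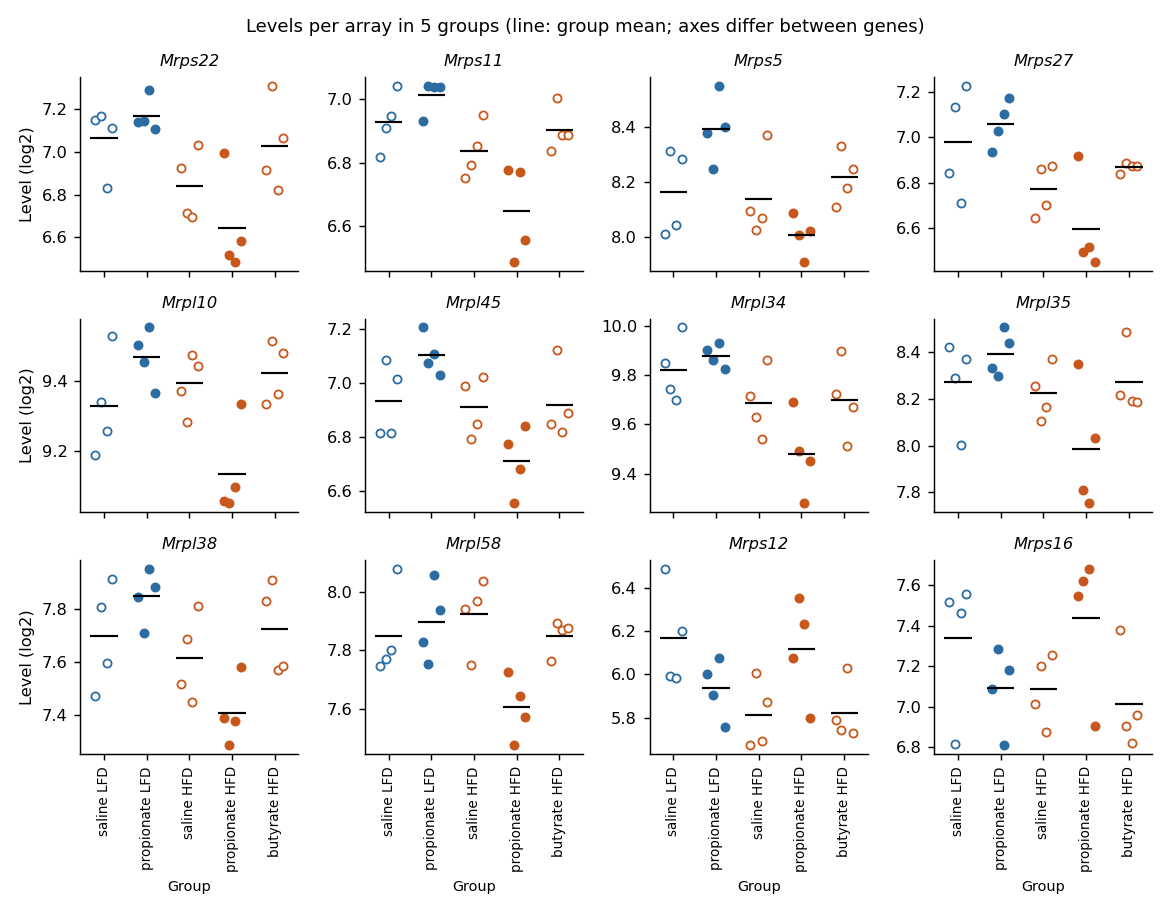
Log2 level per array of 12 genes in 5 groups (x axis), with the group mean as a line, LFD in blue, HFD in orange and the propionate arrays filled; each panel has its own axis. In the first 10 panels the propionate HFD mean is the lowest of the 5, and in Mrps12 and Mrps16 it lies above the saline HFD and butyrate HFD means.

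The 14 calls under propionate depended on single arrays. The count was 26 without propionate HFD 1, the array with the highest mean of the 4, 13 without HFD 4, 1 without HFD 3 and 0 without HFD 2. It was 8 without propionate LFD 1, 14 without LFD 2, 0 without LFD 3 and 3 without LFD 4. The median of the 74 genes stayed below 0 throughout, between -0.2157 (without HFD 1) and -0.1201 (without HFD 3). With the spread estimated from the propionate arrays alone and for each gene alone, 1 gene was called. Here too the share of all genes called in each run is not given.

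Other gene lists were compared between the same propionate arrays. The mean of 59 small nucleolar RNAs was 7.46 ± 0.239 on propionate HFD and 6.76 ± 0.137 on propionate LFD, and of 55 tested 34 were called higher on HFD and none lower (median 0.65). Of all genes, 2.05% were called higher and 4.82% lower between these arrays. Of 11 markers of dividing cells 10 were below 0 (median -0.36), and Mcm2, Mcm4, Mcm5 and Mcm6, subunits of the replicative helicase, were called lower, by -0.76 to -0.59. Their mean level was 7.16 ± 0.208 on HFD and 7.57 ± 0.160 on LFD. Of 10 colonocyte markers 9 were below 0 and none was called (median -0.06), with Aqp8 at -0.25 ± 0.278, Krt20 at -0.20 ± 0.118 and Slc26a3 alone above 0. Their mean level was 11.76 ± 0.0270 on HFD and 11.85 ± 0.0815 on LFD, and the groups overlapped. The part of these lists in the lower levels of the ribosomal genes was not tested.

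On the same diet, no acid changed any of the 74 genes at the threshold against saline. limma called no gene at all in the 6 comparisons (0% of all genes in each). On LFD, the medians were -0.02 for acetate, -0.00 for propionate and -0.03 for butyrate, with 0, 1 and 2 genes at an unadjusted p under 0.05, against 1.51%, 3.81% and 2.8% of all genes. The 95% intervals of the 74 genes lay within -0.53 to 0.33 for acetate, -0.60 to 0.42 for propionate and -0.59 to 0.41 for butyrate. The smallest unadjusted p belonged to Mrps2 for acetate (0.15 ± 0.0810), Mrps5 for propionate (0.23 ± 0.0905) and Mrpl18 for butyrate (-0.26 ± 0.0888), with adjusted p-values of 1.00, 0.972 and 1.00.

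On HFD, the medians against saline were -0.04 for acetate, -0.08 for propionate and 0.01 for butyrate, with 3, 12 and 3 genes at an unadjusted p under 0.05, against 2.51%, 11.7% and 4.01% of all genes. For propionate the 12 were 16.2% of the 74, and 10 of them were lower. Mrpl58 had the smallest p against saline HFD, whose arrays stood at 7.94, 7.75, 7.97 and 8.04. The propionate arrays, given above, all lay below these, which held for Mrpl58 alone of the 74 genes, against 2.96% of all genes. The difference was -0.32 ± 0.0850 (adjusted p = 0.236). Mrpl10 had -0.26 ± 0.0766 and Mrpl17 -0.18 ± 0.0705, with adjusted p-values of 0.256 and 0.325. Mrps12 and Mrps16 were the 2 with a positive difference at an unadjusted p under 0.05, 0.30 ± 0.131 and 0.35 ± 0.170. Across the 74 genes the 95% intervals ran from -0.62 to 0.70 for propionate, -0.49 to 0.58 for acetate and -0.45 to 0.57 for butyrate. Mrpl21 had the smallest p for acetate (-0.21 ± 0.0877, adjusted p = 1.00) and Mrpl54 for butyrate (-0.26 ± 0.0838, adjusted p = 1.00).

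Whether an acid acted differently on the diets was tested as a difference of responses, and limma called no gene (0% in each of 3 comparisons). For propionate, 13 of the 74 stood at an unadjusted p under 0.05 (17.6%, against 12.8% of all genes). Mrpl10 had -0.40 ± 0.108 (adjusted p = 0.187), Mrpl58 -0.36 ± 0.120 (adjusted p = 0.208) and Mrps12 0.54 ± 0.185 (adjusted p = 0.227). For acetate 1 gene (Mrpl46, -0.31 ± 0.140) and for butyrate 3 (Mrpl18, Mrpl22 and Mrpl57) stood at an unadjusted p under 0.05, against 0.844% and 2.27% of all genes, with adjusted p-values of 1.00 for Mrpl46 and 0.999 for the other 3. For each acid this contrast equals the diet difference under that acid minus the diet difference under saline, so none of the 74 genes had a diet difference that passed the threshold for differing from that under saline.

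The acids were also set against each other at the same dose, in 3 pairs on each diet. On LFD no gene was called in any pair (0%), with 1, 0 and 1 of the 74 at an unadjusted p under 0.05 for propionate against acetate (Mrps22, 0.29 ± 0.123), butyrate against acetate and butyrate against propionate (Mrps11, -0.20 ± 0.0820). The shares of all genes were 3.7%, 1.4% and 3.62%. The intervals of the 74 genes lay within -0.52 to 0.54, -0.57 to 0.54 and -0.46 to 0.44. On HFD, butyrate against acetate had no call (0%) and none of the 74 at an unadjusted p under 0.05 (3.64% of all genes), with intervals from -0.37 to 0.46. The 3 with the smallest p there were Mrpl36, Mrps34 and Mrpl57, with differences of 0.21, 0.17 and -0.15.

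Butyrate against propionate on HFD, which differ by a longer chain, had no call among the 74 and 0.0625% of all genes called, while 25 of the 74 (33.8%) stood at an unadjusted p under 0.05, against 17.3% of all genes. Of these 19 were higher under butyrate. Every butyrate HFD array lay above every propionate HFD array in 6 of the 74 genes, against 5.17% of all genes. The reverse held for 2, against 2.08%. Mrpl10 stood at 9.33, 9.51, 9.36 and 9.48 on butyrate HFD, all above the propionate HFD arrays with the nearest pair both at 9.33, and differed by 0.29 ± 0.0766 (adjusted p = 0.0807). Mrps22 differed by 0.38 ± 0.114 (adjusted p = 0.108) and Mrps11 by 0.26 ± 0.0820 (adjusted p = 0.133). Without propionate HFD 1, 7 genes were called, and without propionate HFD 4, 1. Propionate against acetate on HFD had no call (0%) and 14 genes (18.9%) at an unadjusted p under 0.05, against 13.2% of all genes. Mrps12 differed by 0.48 ± 0.131 (adjusted p = 0.116), Mrps11 by -0.27 ± 0.0820 and Mrpl10 by -0.25 ± 0.0766, with adjusted p-values of 0.147 and 0.155. The count was 3 without propionate HFD 4 and 1 without acetate HFD 2. For these runs with an array left out, the share of all genes called is not given. The comparisons on HFD that involve propionate share its 4 arrays.

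Mrps12 was one of the 17 genes above 0 for diet under propionate, while it was below 0 under saline. It stood at 6.49, 5.99, 5.98 and 6.20 on saline LFD and at 5.67, 6.00, 5.69 and 5.87 on saline HFD. On propionate it stood at 6.00, 5.90, 6.08 and 5.76 on LFD and at 6.07, 6.35, 6.23 and 5.80 on HFD. On acetate HFD it stood at 5.63, 5.91, 5.51 and 5.48, the lowest group, and on butyrate HFD at 5.79, 5.74, 6.03 and 5.73. Its range over the 8 group means was 0.53, after 0.58 for Mrps36 and before 0.52 for Mrps22, the 3 widest. The narrowest ranges were those of Mrps35 (0.083), Mrpl52 (0.12) and Mrpl30 (0.13). In RefSeq the starts of Mrps12 and Sars2 lie close together on opposite strands. Sars2, a mitochondrial seryl-tRNA synthetase, had -0.30 ± 0.129 for diet under propionate (adjusted p = 0.146), where Mrps12 had 0.18 ± 0.131 (adjusted p = 0.413).

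Mrpl11 and Mrps30 were not called for diet over all infusions. Mrpl11, at the base of the stalk, had -0.07 ± 0.0395 over all infusions (adjusted p = 0.318), and Mrps30 had -0.03 ± 0.0566 (adjusted p = 0.793). Mrpl58 and Mrpl10, both called under propionate, had -0.06 ± 0.0434 and -0.04 ± 0.0391 over all infusions. Mrpl45 had -0.11 ± 0.0476 (adjusted p = 0.195), and Mrpl12 -0.12 ± 0.0418 (adjusted p = 0.0921). Mrpl36 and Mrpl3 lay just beyond the threshold, with adjusted p-values of 0.0576 and 0.0580.

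Within groups, most of the 74 genes deviated together from array to array. The mean Pearson r over the 2701 pairs, computed on deviations from the group means over 31 arrays, was 0.231, against 0.00668 over all genes tested, and 76.7% of pairs were above 0. It was 0.252 among Mrpl genes, 0.192 among Mrps genes and 0.227 between them, so the pairs across subunits were about as alike as those within. The same measure was 0.318 for cytosolic ribosomal proteins and 0.274 for the respiratory chain. These are descriptions over arrays that share RNA quality and cell make-up. Mrpl16 (r = 0.863), Mrpl36 (0.853) and Mrpl15 (0.830) followed the mean of the other genes most closely. Mrps26 (-0.264), Mrpl2 (-0.0711) and Mrps2 (0.0258) followed it least.

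Over the whole array set, without removal of group means, the genes outside the family whose levels followed its mean most closely were Cct8, a subunit of the cytosolic chaperonin (r = 0.923 over 31 arrays), Ostc, Gfm1, Arfip1 and Dnajc15 (0.905). Gfm1 is the mitochondrial elongation factor that moves the ribosome along. The most opposed were Ehmt2 (-0.871), a histone methyltransferase, Mov10, Clmn, Ctdsp2 and Wwp2 (-0.858).

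Among the other genes of mitochondrial gene expression the counts below 0 varied from list to list, beside 47.6% of all genes. Of all genes, 1.16% were called lower for diet over all infusions. Over all infusions, 12 of 13 translation factors were below 0 (median -0.07, none called). The smallest p-values were those of Tufm, which delivers aminoacyl-tRNA to the ribosome, at -0.14 ± 0.0404 (adjusted p = 0.0504), and Gfm1, at -0.22 ± 0.0629 (adjusted p = 0.0544). Of 19 mitochondrial aminoacyl-tRNA synthetases and related enzymes 15 were below 0 (median -0.08, none called), of 18 assembly factors 13 (median -0.01, none called), and of 15 genes for mitochondrial DNA and transcription 10 (median -0.04, none called). Of 26 genes of protein import 23 were below 0 (median -0.09) and 3 were called: the chaperonins Hspe1 (-0.37 ± 0.0882) and Hspd1 (-0.35 ± 0.0862) and the receptor Tomm70a (-0.20 ± 0.0498), with adjusted p-values of 0.0236, 0.0262 and 0.0291.

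Cytosolic ribosomal proteins did not share the shift: 30 of 70 were below 0 and none was called (median 0.01). Of 78 subunits of the respiratory chain and ATP synthase 63 were below 0 and none was called (median -0.05). Among 9 regulators of mitochondrial biogenesis none was called. Nrf1 had -0.13 ± 0.0393 (adjusted p = 0.0677) and Myc 0.19 ± 0.0754 (adjusted p = 0.136).

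Under propionate, 5 of 19 synthetases and related enzymes were called lower, among them Nars2 (-0.57 ± 0.126, adjusted p = 0.0156), Yars2 (-0.47 ± 0.123, adjusted p = 0.0259), Cars2, Qrsl1 and Gatc. Of all genes, 54.3% were below 0 and 4.82% were called lower in this comparison. All 13 translation factors were below 0 and Gfm1 was called (-0.41 ± 0.123, adjusted p = 0.0446). Of 18 assembly factors 14 were below 0, and Eral1, a GTPase that binds the RNA of the small subunit (-0.45 ± 0.0982, adjusted p = 0.0156), and Noa1 (-0.33 ± 0.0937, adjusted p = 0.0364) were called lower. Dap3, a small-subunit protein under another symbol, was called at -0.20 ± 0.0598 (adjusted p = 0.0393).

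In RNA handling, Pnpt1, a ribonuclease of mitochondria (-0.70 ± 0.166, adjusted p = 0.0183), and Lrpprc, which stabilises mitochondrial messenger RNA (-0.29 ± 0.0823, adjusted p = 0.0371), were called lower of 15 genes. Of 26 import genes Hspd1, Timm23 and Timm17b were called lower, by -0.59, -0.39 and -0.26. Of 9 regulators Myc was called higher (0.49 ± 0.148, adjusted p = 0.0435). Of 70 cytosolic ribosomal proteins 63 were above 0 (median 0.12), with 14 called higher and 1 lower. Over all genes 45.7% were above 0, 2.05% were called higher and 4.82% lower. Of 78 respiratory subunits 48 were below 0 (median -0.05), with 5 called lower and 4 higher.

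**Figure D5:**
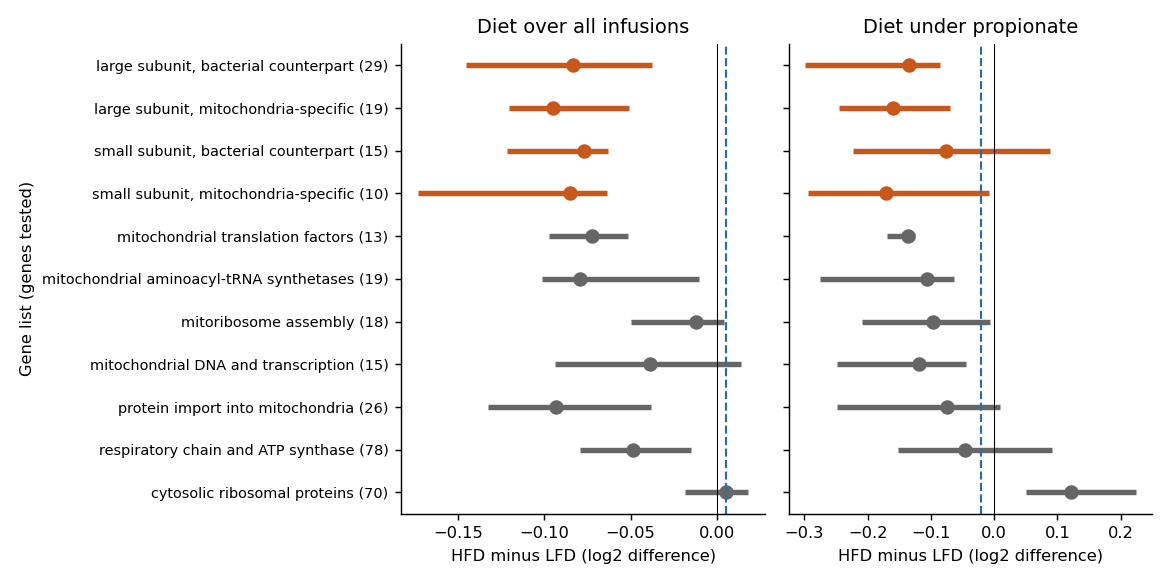
Median (point) and quartiles (bar) of HFD minus LFD for the 4 roles of mitochondrial ribosomal proteins (orange) and 7 related gene lists (grey), over all infusions (left) and under propionate (right); the dashed line is the median of all genes tested. On the left the 4 roles have medians of -0.10 to -0.08 and cytosolic ribosomal proteins 0.01, and on the right cytosolic ribosomal proteins lie at 0.12 with the 4 roles between -0.17 and -0.08.

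By promoter letters, genes with the ETS match had a median diet difference of -0.09 over all infusions, as had those without it. Genes with the Nrf1 match had -0.03 and those without it -0.11. Under propionate the medians were -0.11 with and -0.16 without the ETS match, and -0.10 with and -0.16 without the Nrf1 match. The 5 genes with the Yy1 match had -0.36 under propionate and -0.11 over all infusions, against -0.14 and -0.09 in the others. Of these 5, Mrps11, Mrps27 and Mrpl35 are among the 14 called under propionate. Of the 24 with the ETS match, Mrpl3, Mrpl34, Mrpl58, Mrps22 and Mrps27 were called, and of the 13 with the Nrf1 match, Mrpl45. Called under propionate were 18.9% of the 74 genes and 6.87% of all genes. The 74 include genes without a window, among them Mrpl19, Mrpl38 and Mrpl4, which were called. Whether a motif goes with the calls was not tested.

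Several genes had more than 1 probe set. For 12 of the 74 a further probe set with a single symbol existed, and in the diet comparison over all infusions its sign differed from that of the probe set used in Mrpl27, Mrpl42, Mrpl47 and Mrps30. These 4 further probe sets had differences smaller than their errors, and 3 of them were dim: that of Mrpl42 had a mean level of 3.91, below the floor of 4.32, and those of Mrpl47 and Mrps30 had 4.59 and 4.62. For Mrps36, a probe set shared with Sgk3 had -0.31 ± 0.0774 over all infusions and -0.49 under propionate, beside -0.34 and -0.51 for the probe set used. Probe sets shared by Mrpl41 and Dph7 had 0.03 ± 0.0594 and -0.09 ± 0.0530 over all infusions. Those of Mrpl19 with Gcfc2 and of Mrpl48 with Rab6a had -0.05 ± 0.0550 and 0.09 ± 0.0549. Under propionate these probe sets had 0.01, -0.08, -0.23 and 0.002, in the same order.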

How the data were processed

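The authors deposited log2 expression values made with RMA, per the submitters' processing notes, which name no version; the genome build of the array design is not given in the sources used here. Each of the 31 samples was hybridised to 1 array. Array medians lay between 5.14 and 5.19, and arrays of a group correlated at 0.987 to 0.994. The number of arrays limits the precision. Of the probe sets, 21218 had 1 gene symbol, 1881 several and 12457 none listed. Only the first kind was used, with the brightest probe set for each symbol. A gene was tested if at least 3 arrays reached an intensity of 20 (log2 4.32), which left 12795 genes. limma 3.58.1 (R 4.3.3) fitted 1 mean per group with an intensity trend, and 20 comparisons were each adjusted over all genes tested by the Benjamini-Hochberg method; the scripts were checked on simulated data. The labels do not say whether replicate numbers pair the samples, so the samples were taken as unpaired and no block was used.

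Members and gene lists were chosen with earlier results of these data known. Named genes are those past an adjusted p of 0.05 (at most the 10 with the smallest p, and otherwise the 3 with the smallest p in the comparison), the 3 with the widest and narrowest group ranges, the 3 that followed the others most and least, and a panel of 11 genes with known roles (Mrpl10, Mrpl11, Mrpl12, Mrpl45, Mrpl58, Mrps12, Mrps18a, Mrps18b, Mrps18c, Mrps30 and Mrps36). Outside the family they are list genes past the threshold or with the smallest p, and the 5 genes most and the 5 least correlated with the family mean. Further genes, such as Mrpl27 and those just beyond a threshold, were named after their values were seen. Alternatives changed the filter, the variance model, the array weights, the choice of probe sets, the normalization, the samples in the fit and the replicate block, and left out each array in turn. A further 4 were chosen after seeing the data: without the arrays high in small-intestinal or in smooth muscle transcripts, with each gene's own spread, and without the propionate groups.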

Additional observations from a re-analysis of the deposited data

Results flagged for a closer look

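In 18 named genes and their mean, 133 groups of 4 arrays were examined for an array that stood apart from the other 3, and 8 had one; chance gives about 5% of groups. On propionate HFD 1, Mrpl16 stood at 7.65 with the other arrays at 7.23 to 7.28, Mrps27 at 6.92 with the others at 6.45 to 6.51, and Mrpl19 at 7.30 with the others at 7.22 to 7.23. On propionate HFD 4, Mrpl10 stood at 9.33 with the others at 9.05 to 9.10. On propionate LFD 1, Mrps11 stood at 6.93 with the others all at 7.04. On butyrate HFD 2, Mrps36 stood at 6.88 with the others at 6.33 to 6.35, and Mrpl35 at 8.48 with the others at 8.19 to 8.22. On saline LFD 4, Mrpl58 stood at 8.08 with the others at 7.75 to 7.80. The causes were not tested.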

How the results depend on the processing

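In each comparison the genes followed were those past the threshold or, where none passed, the 3 with the smallest p. None of them changed sign in any alternative run, and neither did a median of the 5 diet comparisons. Other genes named in the text were not followed in this way. Medians near 0 did: 21 values in 7 comparisons, between -0.0132 and 0.0455, had the other sign. These were acetate, propionate and butyrate against saline, propionate and butyrate against acetate (all on LFD), butyrate against saline on HFD, and the difference of acetate responses between diets (-0.02 over all arrays). The counts of calls that follow are given without the share of all genes called in the same run. The number of the 74 genes called for diet over all infusions (5) was 2 with no filter on dim genes, 26 with array weights, 12 and 0 when the arrays with high small-intestinal or smooth muscle markers were left out, 1 with each gene's own spread, 0 without the propionate groups, and 0 to 16 with 1 array left out. For diet under propionate (14) it was 9 with no filter, with quantile normalization or with only the groups compared, 30 with array weights, 1 with each gene's own spread and 0 to 26 with 1 array left out, with a median of -0.2157 to -0.1201. Array weights gave on HFD 2 calls for propionate against saline, 15 for propionate against acetate and 9 for butyrate against propionate; with 1 array left out the last pair of comparisons gave 0 to 3 and 0 to 7, and the median of propionate against acetate on HFD ran from -0.1091 to -0.0130. When the arrays with high small-intestinal markers were left out, 1 gene was called for diet under saline (median -0.1618), and the medians were -0.0880 for acetate and -0.1084 for butyrate against saline on LFD, and 0.0455 and 0.1285 for the differences of their responses between diets. The causes were not tested. Of the values of the genes followed under the alternatives, 1483 kept their side of the threshold, 200 lost a call and 15 gained one. With the replicate number as a block, 6 genes were called for diet over all infusions and 13 under propionate, and no count moved by over 1.5 times; the mean correlation of same-numbered arrays was 0.0151, 0.116, 0.00854 and 0.0174 for numbers 1 to 4, with the lowest pair below 0 for each.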

Other observations

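Mrps6, Mrpl43, Mrpl24 and Mrpl53 were measured only by probe sets that carry a second gene's symbol, with Slc5a3, Sema4g, Rrnad1 and Ccdc142. Over all infusions these had HFD minus LFD values of 0.01, -0.01, 0.04 and -0.03, and under propionate the probe set of Mrpl24 and Rrnad1 had 0.29 ± 0.0661. The second probe set of Mrpl18 had -0.31 ± 0.102 over all infusions and -0.65 ± 0.201 under propionate, and that of Mrpl10 had -0.23 ± 0.0683 under propionate.

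Of the genes that followed or opposed the mean level of the family over the 31 arrays, Arfip1 was lower on HFD over all infusions (-0.24, adjusted p = 0.0230), and Mov10 (0.39, adjusted p = 0.0161), Wwp2 (0.32, adjusted p = 0.0161) and Clmn (0.19, adjusted p = 0.0199) were higher. Cct8 had -0.20 (adjusted p = 0.0580). Of all genes tested, 2.7% were called in this comparison. The genes named here were picked by correlation with the family mean on the same arrays, without removal of group means. That mean was itself lower on HFD, so their diet differences are not independent of the choice.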
